A study of Xenopus laevis with 20 samples.

Results

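Animal caps that received only Pax3GR message were compared with animal caps that received only Zic1GR message. An animal cap is the prospective ectoderm cut from a frog blastula, and it forms epidermis unless it is given another instruction. The comparison used the 5 arrays of explants injected with Pax3GR and the 5 arrays of explants injected with Zic1GR, 10 of the 20 arrays of the study. The other 10 arrays held 5 samples injected with both messages (Pax3GR/Zic1GR, called the combination). The remaining 5 were injected with the glucocorticoid receptor message alone (GR, the negative control). The levels of both groups are given beside the comparison for some genes only. Where the GR level is not given, the comparison does not tell a gain in either injected group from a loss in the other. All probe sets other than the manufacturer's controls entered if they reached log2 4 on at least 5 of the 20 arrays, which kept 20519 of 32539.

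All embryos were Xenopus laevis, injected at the 2-cell stage. Caps were dissected at stage 9 and cultured for 8 h with dexamethasone, which every group received, controls included. Pax3GR and Zic1GR are each factor fused to the ligand-binding region of the glucocorticoid receptor, so that the protein becomes active when dexamethasone is added. From each sample, 100 ng of total RNA was amplified and hybridised to Affymetrix Xenopus laevis arrays. The array titles do not say how many caps a sample held, and an explant below stands for the sample of an array. The labels give neither the amount of message injected nor which gene copy the constructs carried. They do not say whether replicates came from separate clutches, so the p-values measure the spread between these explants. That spread was estimated from all 20 arrays, so an adjusted p also carries the spread of combination and GR explants.

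Pax3 is a transcription factor with a paired domain and a homeodomain, and Zic1 is a zinc finger transcription factor. Both are made at the neural plate border, the strip between neural plate and epidermis that gives rise to neural crest, cranial placodes and, in the frog, the hatching gland, whose enzymes dissolve the egg envelope. From earlier frog work, Pax3 alone is known for promoting hatching gland, Zic1 alone for promoting the preplacodal ectoderm from which lens, nose, ear and anterior pituitary arise, and the pair together for promoting neural crest. Levels below are log2 intensities, and a difference is Pax3GR minus Zic1GR on the log2 scale with its standard error, so that a positive value means a higher level in Pax3GR explants.

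Of the 20519 probe sets tested, 7037 (34.3%) differed at an adjusted p under 0.05 in limma, of which 3543 (17.3%) were higher and 3494 (17%) lower in Pax3GR than in Zic1GR explants. At least 1 log2 unit separated the group means of 2141 of the higher (10.4% of those tested) and 1780 of the lower ones (8.67%). The 5 Pax3GR values all lay above the 5 Zic1GR values for 2479 probe sets (12.1%) and all below them for 2303 (11.2%). The median difference over all probe sets tested was -0.045. Called higher and called lower are used below for probe sets past the limma threshold. Among all 11303 named gene copies on the array, 12.9% were called higher and 13.4% lower. The percentages of gene lists below are of their copies on the array and are to be read beside these. A probe set is called on in a group where all 5 arrays were at log2 4 or more and off where all 5 were below it. Where a group was off, the fold is only a bound and is written as at least that size, with values under log2 4 set to 4. Where only some arrays of a group were below log2 4, the difference with those values set to 4 is given after the standard error and is called floored, while the adjusted p is that of the values as deposited.

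**Figure D1:**
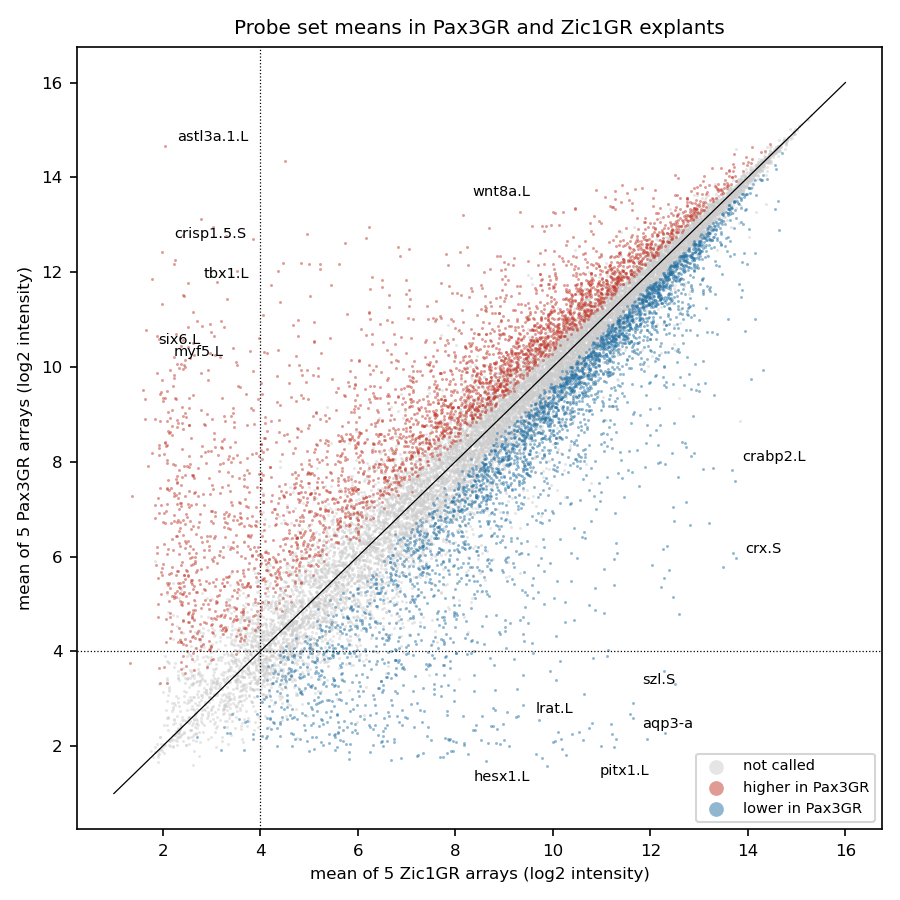
Mean log2 intensity of the 5 Pax3GR arrays (vertical) against that of the 5 Zic1GR arrays (horizontal) for the 20519 probe sets tested. Red points were called higher in Pax3GR explants and blue points lower, the diagonal marks equal means, and the dotted lines mark log2 4. Hatching gland astl3a.1.L and tbx1.L lie at the upper left and pitx1.L and hesx1.L at the lower right, each on in all 5 arrays of one group and off in all 5 of the other.

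Explants that had received the same message differed among themselves. The first principal component of the 10 arrays held 54.7% of the variance and put all Pax3GR arrays on one side and all Zic1GR arrays on the other. The second held 19.1% and separated Pax3GR replicate 1, and to a smaller extent replicate 2, from replicates 3, 4 and 5. The mean level of the list of multiciliated cell genes, which mark ciliated epidermis, was 9.63, 6.92, 4.89, 4.98 and 4.88 in the Pax3GR explants in replicate order, against 5.93, 6.01, 8.61, 7.500 and 8.31 in the Zic1GR explants. In GR explants this list mean was 10.16 to 11.23, above all 10 arrays compared. Among those 10, ciliated cell genes were thus highest in Pax3GR replicate 1, and within the Zic1GR group they were higher in replicates 3, 4 and 5. Their part in the differences below was not tested. Without Pax3GR replicate 1, 7288 probe sets were called, 3700 higher and 3588 lower. In such whole explants, fewer cells of a type and less RNA per cell cannot be told apart, and 5 arrays per group limit the precision.

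**Figure D2:**
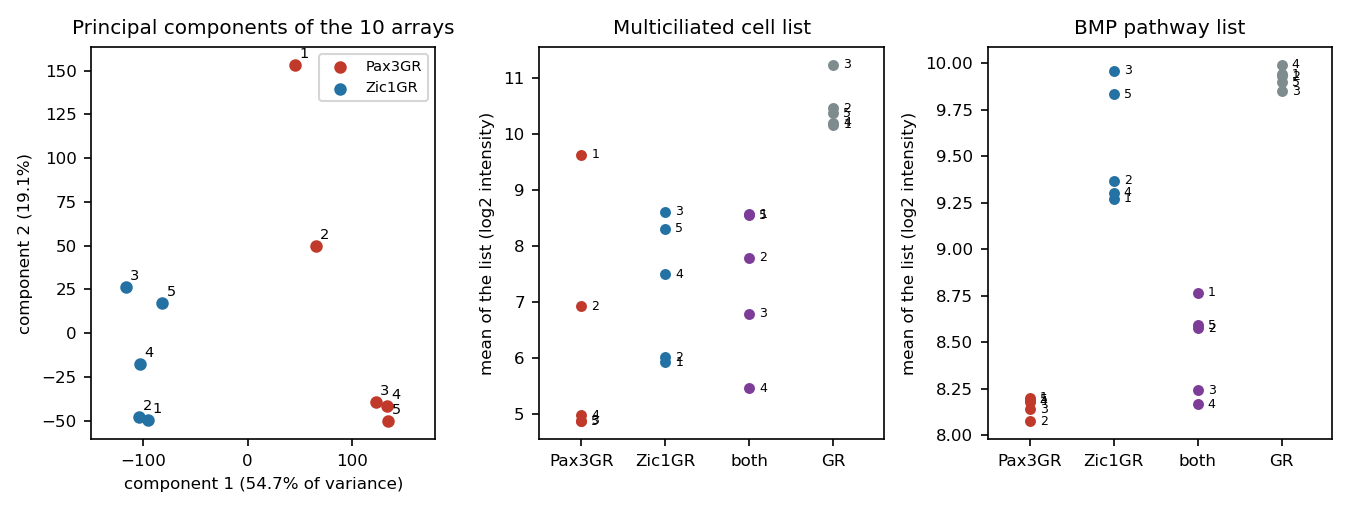
Left, the 10 arrays on the first and second principal components of the probe sets tested, numbered by replicate. Middle and right, the mean log2 intensity of the multiciliated cell list and of the BMP pathway list on each of the 20 arrays, where "both" is the combination. The ciliated cell means of the Pax3GR and Zic1GR groups overlap, with Pax3GR replicate 1 at 9.63, whereas the BMP list means of all Pax3GR explants lie below the lowest of the Zic1GR explants, 9.27.

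The injected genes were examined first. All 7 probe sets of pax3 and both probe sets of zic1 were called higher in Pax3GR than in Zic1GR explants. For pax3.S (Xl2.49495.3.S1_a_at), levels were 12.86, 12.97, 12.98, 13.01 and 13.06 in Pax3GR explants, against 10.53, 10.44, 8.87, 10.40 and 7.60 in Zic1GR explants. Its values did not overlap, and the difference was 3.41 ± 0.41 (limma adjusted p = 4.85e-06). In GR explants it was at 2.13 to 2.83, below all values of both injected groups. For 3 of the 7, all assigned to pax3.L, Pax3GR means of 14.14, 13.75 and 9.64 stood against GR means of 14.00, 13.56 and 9.45, and neither direction was called (adjusted p = 0.427, 0.127 and 0.718). For zic1.S (Xl2.1796.1.S2_at), levels were 13.81, 14.08, 14.10, 13.99 and 13.94 in Pax3GR explants, against 13.00, 12.37, 12.52, 13.06 and 11.84 in Zic1GR explants. Transcripts detected by zic1 probe sets were therefore more abundant where Pax3GR message had been injected, with a difference of 1.43 ± 0.30 (adjusted p = 0.00141). In GR explants the same probe set was at 6.33 to 8.35, below all values of both injected groups. Both zic1 probe sets thus separated the Pax3GR and Zic1GR groups without overlap, with the higher level in Pax3GR explants. The zic1 level was therefore not highest under the Zic1GR label, though both groups lay above GR. Explants of each injection thus held transcripts of the other factor above the GR level, as measured with these pax3.S and zic1.S probe sets. The probe sets do not tell injected from native transcripts, since the labels do not say which parts of the messages were injected.

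The sharpest contrast lay in probe sets that were on in one injection and off in the other. There were 289 probe sets (1.41% of those tested) on in Pax3GR and off in Zic1GR explants, and 157 (0.765%) on in Zic1GR and off in Pax3GR explants. With a single gene symbol were 129 and 85 of them. Among the named genes with the highest level in Pax3GR explants were the hatching gland protease astl3a.1.L, the T-box factor tbx1.L, the eye field factor six6.L and the myogenic factor myf5.L. Among those with the highest level in Zic1GR explants were the anterior homeodomain factors pitx1.L and hesx1.L, the retinol-esterifying enzyme lrat.L, the water and glycerol channel aqp3-a and the proneural factor neurog2.S.

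The state of these probe sets in the other groups was as follows. Of the 289 on in Pax3GR explants, 87 were on in all 5 combination explants, 50 were off in all 5 and 152 were mixed, while in GR explants 24 were on, 222 off and 43 mixed. Of the 157 on in Zic1GR explants, 11 were on in all 5 combination explants, 74 were off in all 5 and 72 were mixed, while in GR explants 41 were on, 95 off and 21 mixed. The combination mean lay nearer to the Pax3GR mean than to the Zic1GR mean for 133 of the 289 and for 133 of the 157. These are counts without a test, and no share over all probe sets tested was taken beside them. For the 95 of the 157 that were off in GR explants, the Pax3GR state was also the GR state. Against GR, 27.3% of the probe sets tested were called higher and 23% lower with Pax3GR, and 28.6% higher and 22.8% lower with Zic1GR. In some genes 1 of the injected groups stayed near the GR level. The homeodomain factor nkx2-3.L, for example, was at 2.04 to 2.28 in Pax3GR explants, against 9.02 to 11.29 in Zic1GR explants, with GR explants at 9.25 to 9.93. Its Zic1GR values lay near the GR level, with a Zic1GR minus GR difference of 0.44 (adjusted p = 0.241), whereas Pax3GR explants were off and called lower than GR (adjusted p = 1.7e-12). The reverse was seen for carbonic anhydrase ca2.S, at 9.96 to 11.84 in Pax3GR explants, against 2.40 to 3.01 in Zic1GR explants. Its GR values ran at 8.56 to 10.93, with a Pax3GR minus GR difference of 1.23 (adjusted p = 0.294), whereas Zic1GR explants were off and called lower than GR (adjusted p = 1.27e-05).

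**Figure D3:**
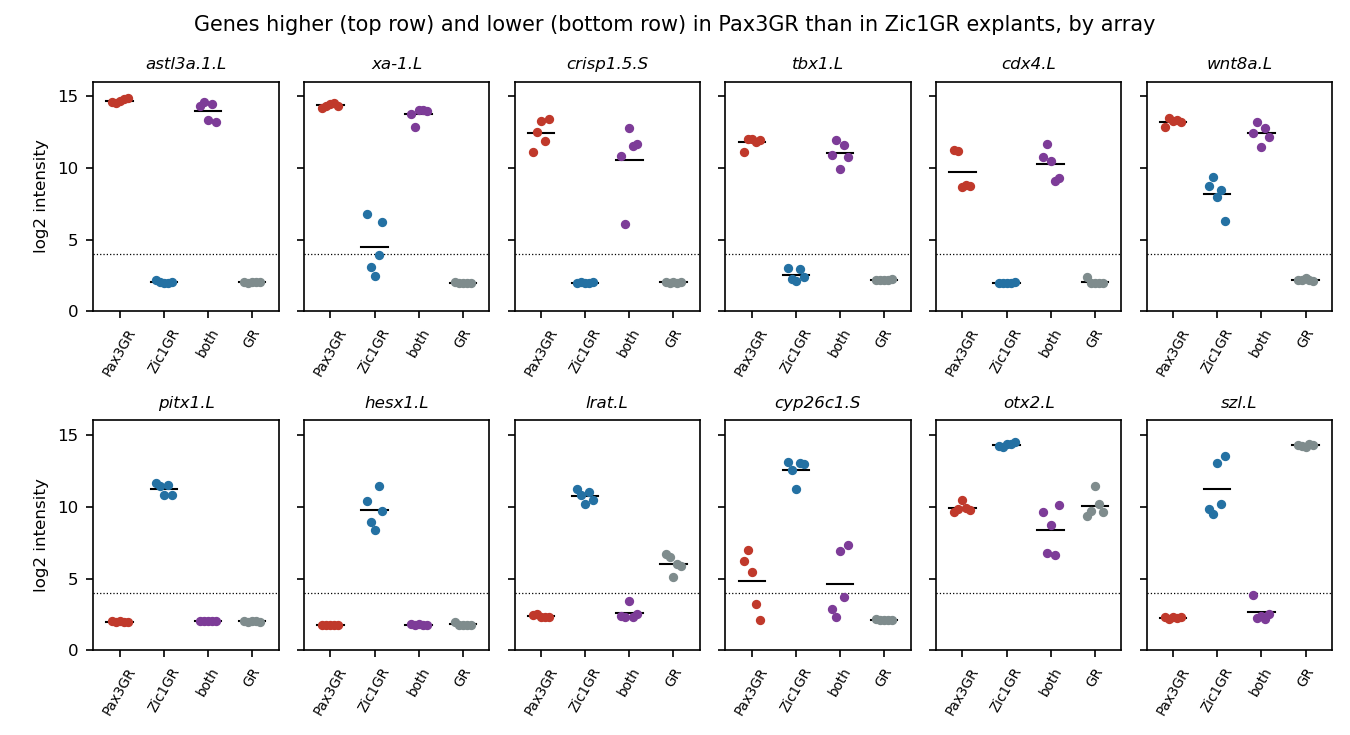
Log2 intensity on each of the 5 arrays of 4 groups for 12 genes, in the order Pax3GR, Zic1GR, combination ("both") and GR, with a bar at the group mean and a dotted line at log2 4. The genes were picked for illustration, 6 higher and 6 lower in Pax3GR explants. No Pax3GR point of these genes lies among the Zic1GR points.

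Genes of the hatching gland gave the largest difference of any named gene. Of the 4 gene copies on the array that the hatching gland list held, 2 were called higher in Pax3GR explants (50%), against 12.9% of all 11303 named gene copies. Only these 2 were tested. Both were below log2 4 in all GR explants and passed the filter through their high levels in Pax3GR and combination explants. Their count is therefore no separate support for the difference. The protease astl3a.1.L (Xl2.120.1.S1_at) was at 14.57, 14.53, 14.61, 14.75 and 14.83 in Pax3GR explants, against 2.21, 2.01, 1.96, 1.998 and 2.06 in Zic1GR explants. All Pax3GR arrays were near the top of the scale and all Zic1GR arrays were off, a difference of at least 1616-fold (adjusted p = 9.09e-18). The hatching gland marker xa-1.L was at 14.15, 14.32, 14.44, 14.49 and 14.30 in Pax3GR explants, against 6.79, 3.11, 2.45, 3.94 and 6.23 in Zic1GR explants. It was high in every Pax3GR explant and above log2 4 in replicates 1 and 5 of Zic1GR, and the difference was 9.84 ± 0.60 or 9.34 floored (adjusted p = 9.54e-10). In GR explants it was at 1.96 to 2.02. In the combination both genes were high, at a mean of 13.97 for astl3a.1.L and 13.71 for xa-1.L.

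A further astacin-family protease, astl2e.2.L, was at 12.52, 12.24, 12.54, 11.99 and 11.59 in Pax3GR explants, against 2.19, 2.25, 2.17, 2.18 and 2.32 in Zic1GR explants, again on in every Pax3GR explant and off in every Zic1GR explant. Its level varied more between Pax3GR explants than that of astl3a.1.L, and the difference was at least 289-fold (adjusted p = 1.79e-06). Its SD was 0.397 in Pax3GR explants and 3.59 in combination explants, and the adjusted p carries both. The secreted cysteine-rich protein gene crisp1.5.S was at 11.09, 12.46, 13.27, 11.89 and 13.39 in Pax3GR explants, against 1.96, 2.02, 1.97, 1.99 and 2.05 in Zic1GR explants. All Zic1GR explants were off for it, and the difference was at least 342-fold (adjusted p = 3.92e-08). Neuritin (nrn1.S), a membrane-anchored protein of neurons, was at 11.95 to 12.66 in Pax3GR explants, against 2.19 to 2.31 in Zic1GR explants (at least 305-fold, adjusted p = 7.65e-06). The T-box factor tbx1.L, known for its part in pharyngeal and otic development, was at 11.12 to 12.02 in Pax3GR explants, against 2.13 to 2.99 in Zic1GR explants (at least 219-fold, adjusted p = 1.14e-13). Potassium channel kcnk6.L differed by at least 115-fold, the neuropeptide precursor tac1.L by at least 86.5-fold and the actin-binding filamin flnc.L by at least 101-fold.

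Placode and cement gland genes were more often called lower than higher in Pax3GR explants. The preplacodal and placode list had 28 copies on the array, 19 of them tested. Of these, 1 was called higher (3.57% of the 28) and 13 lower (46.4%) in Pax3GR explants. The median difference was -0.95 over the list (2 higher without Pax3GR replicate 1). Among all named gene copies, 13.4% were called lower and the median was -0.018. The cement gland list had 11 copies, 9 of them tested, with 1 called higher (9.09%) and 7 lower (63.6%) and a median of -3.18. The homeodomain factor pitx1.L, on both lists, was at 2.01, 1.97, 2.02, 1.96 and 1.96 in Pax3GR explants, against 11.66, 11.46, 10.80, 11.52 and 10.83 in Zic1GR explants. Every Pax3GR array was off and every Zic1GR array on, a difference of at least 153-fold (adjusted p = 8.93e-19). The forebrain and pituitary factor hesx1.L was at 1.77, 1.75, 1.77, 1.75 and 1.75 in Pax3GR explants, against 10.41, 8.97, 8.35, 11.41 and 9.72 in Zic1GR explants. Its 5 Zic1GR values were spread but all lay far above the Pax3GR values, with a difference of at least 54.6-fold (adjusted p = 1.47e-11). The other copy, hesx1.S, was lower as well, by at least 19.2-fold. In combination explants pitx1.L averaged 2.04 and hesx1.L 1.79.

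The anterior homeodomain factor otx2.L was at 9.64, 9.85, 10.44, 9.94 and 9.79 in Pax3GR explants, against 14.23, 14.13, 14.34, 14.33 and 14.52 in Zic1GR explants. All Zic1GR explants lay above all Pax3GR explants, whose level was near that of GR, at 9.38 to 11.43, and the difference was -4.38 ± 0.55 (adjusted p = 9.51e-06). The cement gland gene ag1.L was at 10.57 to 10.94 in Pax3GR explants, against 13.75 to 14.08 in Zic1GR explants, a difference of -3.18 ± 0.32 (adjusted p = 6.87e-07). In GR explants ag1.L was at 12.97 to 13.62, between both groups and nearer to the Zic1GR level. The secreted protein agr2.S, made by cement gland and mucus cells, was at 6.47 to 10.06 in Pax3GR explants, against 12.92 to 13.54 in Zic1GR explants, with GR explants at 13.88 to 14.26. It was called lower, with a difference of -5.41 ± 0.96 (adjusted p = 0.000297), and Pax3GR minus GR was -6.21 (adjusted p = 4.13e-05). The only cement gland list member called higher was hes2.L, a transcriptional repressor of the Hes family, at 8.96 to 11.74 in Pax3GR explants, against 2.72 to 3.54 in Zic1GR explants. The only placode member called higher was the Iroquois factor irx3.L, with a difference of 2.05 ± 0.49 (adjusted p = 0.00331). Proneural neurog2.S was at 1.97 to 2.03 in Pax3GR explants, against 7.37 to 10.53 in Zic1GR explants (at least 34.2-fold, adjusted p = 7.23e-11).

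Eye field and forebrain genes were more often called lower than higher in Pax3GR explants. The list had 36 copies, 21 of them tested, with 3 called higher (8.33%) and 14 lower (38.9%). Among all named gene copies, the shares were 12.9% and 13.4%. The photoreceptor and anterior factor crx.S was at 5.597, 4.43, 6.29, 7.05 and 6.47 in Pax3GR explants, against 13.95, 13.67, 13.49, 13.86 and 13.78 in Zic1GR explants. Zic1GR explants were high for it and Pax3GR explants low, and the difference was -7.78 ± 0.54 (adjusted p = 4.97e-09). The LIM homeodomain factor lhx5.S was at 7.80, 6.54, 4.74, 4.37 and 4.34 in Pax3GR explants, against 12.22, 12.43, 12.14, 12.09 and 12.54 in Zic1GR explants. The groups did not overlap, with a difference of -6.73 ± 0.69 (adjusted p = 8.88e-07). The T-box factors tbx2.L and tbx3.S, which act in the dorsal eye, were lower in Pax3GR explants by at least 27.2-fold and 38.1-fold, and both were also high in GR, at a mean of 9.35 and 12.01. The forebrain zinc finger gene fezf2.L, listed with the neural plate genes, was at 1.999 to 2.04 in Pax3GR explants, against 5.97 to 9.61 in Zic1GR explants (at least 18.2-fold, adjusted p = 3.15e-08).

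The six6 copies went the other way. The eye and pituitary factor six6.L was at 9.61, 9.49, 10.98, 11.97 and 11.86 in Pax3GR explants, against 1.64, 1.67, 1.66, 1.67 and 1.70 in Zic1GR explants. All Pax3GR explants were on and all Zic1GR explants off, a difference of at least 110-fold (adjusted p = 2.05e-12). The other copy, six6.S, was higher by at least 38.8-fold (adjusted p = 6.59e-08). In combination explants six6.L averaged 1.74, so it was detected with Pax3GR alone and not with both messages. The related six3.L was at 10.61, 11.55, 11.998, 12.54 and 12.63 in Pax3GR explants, against 10.50, 8.33, 9.18, 10.36 and 9.35 in Zic1GR explants. Its 5 Pax3GR values lay above the 5 Zic1GR values but the difference of 2.32 ± 1.08 missed the threshold (adjusted p = 0.108). It was called when only the 10 arrays compared were fitted and when array weights were used. The head factor otx1.L averaged 12.88 ± 0.47 in Pax3GR explants and 12.86 ± 0.23 in Zic1GR explants (SD, n = 5 each), a difference of 0.022 ± 0.64 (adjusted p = 0.984).

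Genes that make, bind or break down retinoic acid were more often called lower than higher in Pax3GR explants. Retinoic acid is the vitamin A derivative that patterns the head-to-tail axis, and Cyp26 enzymes remove it. Of 24 copies on the array, 15 were tested, with 2 called higher (8.33%) and 7 lower (29.2%), beside 12.9% and 13.4% of all named copies, and the median difference was -0.021. The degrading enzyme cyp26c1.S was at 6.22, 6.97, 5.48, 3.19 and 2.11 in Pax3GR explants, against 13.08, 12.56, 11.26, 13.07 and 12.96 in Zic1GR explants. Zic1GR explants were all high, and Pax3GR explants were above log2 4 in replicates 1, 2 and 3 and below it in replicates 4 and 5, the difference being -7.79 ± 0.97 or -7.25 floored (adjusted p = 7.8e-06). The enzyme lrat.L, which stores retinol as ester, was at 2.31 to 2.53 in Pax3GR explants, against 10.17 to 11.24 in Zic1GR explants. All Pax3GR explants were off, a difference of at least 107-fold (adjusted p = 2.35e-13), and GR explants were in between at 5.096 to 6.68.

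The degrading enzymes cyp26a1.S and cyp26a1.L were lower in Pax3GR explants, with differences of -6.95 ± 0.75 or -6.57 floored and -6.35 ± 0.65 or -6.11 floored (adjusted p = 1.52e-06 and 8.37e-07). The lipocalin ptgds.S, which in the frog is made at the anterior border and binds retinoids, averaged 6.70 ± 2.28 in Pax3GR explants and 13.20 ± 0.48 in Zic1GR explants (SD, n = 5 each). Its GR values were at 1.64 to 2.08, so both factors gave more than GR, and the difference between them was -6.500 ± 0.71 or -6.32 floored (adjusted p = 1.77e-06). The binding protein crabp2.L was at 8.92, 8.97, 8.42, 6.14 and 6.67 in Pax3GR explants, against 13.75, 14.01, 13.54, 13.68 and 13.40 in Zic1GR explants. The groups did not overlap, although Pax3GR values were widely spread, and the difference was -5.86 ± 1.14 (adjusted p = 0.00069). Called higher in Pax3GR explants were dhrs3.L, which turns retinal back into retinol, by 3.04 ± 0.47 (adjusted p = 8.02e-05), and the receptor rara.L, by 2.18 ± 0.33 or 1.66 floored (adjusted p = 6.65e-05). The partner receptor rxrb.S was near equal, with a difference of -0.019 ± 0.065 (adjusted p = 0.847). The 5 tested probe sets of the synthesising enzyme aldh1a2.L disagreed, 1 called higher and 2 lower, so no direction is given for it.

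Caudal, Hox and other posterior genes were called in the opposite direction. Their list had 33 copies, 12 of them tested, with 7 called higher (21.2%) and 0 lower (0%) in Pax3GR explants. The caudal factor cdx4.L was at 11.24, 11.17, 8.66, 8.82 and 8.73 in Pax3GR explants, against 1.95, 2.01, 1.96, 1.98 and 2.03 in Zic1GR explants. All Zic1GR explants were off, with a difference of at least 52.9-fold (adjusted p = 3.78e-09), and GR explants averaged 2.07. The related cdx2.L was at 11.71, 10.63, 7.87, 8.93 and 8.32 in Pax3GR explants, against 2.04, 2.11, 2.08, 2.09 and 2.16 in Zic1GR explants. Again all Zic1GR explants were off, at least 45-fold lower than Pax3GR explants (adjusted p = 2.14e-07), while GR explants averaged 8.88. The homeodomain factor evx1.L, known from the tail end of the embryo, was at 11.14 to 12.24 in Pax3GR explants, against 5.77 to 8.35 in Zic1GR explants and at 2.25 to 2.67 in GR explants, with a difference of 4.88 ± 0.35 (adjusted p = 7.98e-09). The hindbrain factor meis3.L was at 13.03 to 13.43 in Pax3GR explants, against 9.81 to 10.73 in Zic1GR explants, a difference of 3.05 ± 0.19 (adjusted p = 1.09e-09). Its GR mean of 11.62 lay between both groups.

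The Hox gene hoxa2.L was at 9.50, 7.45, 6.97, 6.93 and 6.21 in Pax3GR explants, against 2.44, 2.58, 2.51, 2.56 and 5.06 in Zic1GR explants. Pax3GR values were above Zic1GR values in all 5 arrays (difference 4.39 ± 0.64 or 3.203 floored, adjusted p = 4.69e-05), and GR explants were higher than both, at 9.88 to 11.16. Pax3GR minus GR was -2.91 (adjusted p = 0.00112) and Zic1GR explants, 4 of 5 of them below log2 4, were called lower than GR as well (adjusted p = 9.69e-08). The level of hoxa2.L was thus below that of GR in both groups. Members not called included meis2.L, with a difference of 0.067 ± 0.27 (adjusted p = 0.873).

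Wnt pathway genes were more often called higher. Wnt proteins are secreted signals that, through β-catenin and the Tcf and Lef factors, pattern the border and the posterior body. Of 64 copies, 41 were tested, with 21 called higher (32.8% of the 64) and 8 lower. Among all named copies, 12.9% were called higher and 13.4% lower. The Wnt share was thus above that level for higher calls and slightly below it for lower calls. The median difference was 0.061, beside -0.018 over all named copies. The ligand wnt8a.L was at 12.83, 13.49, 13.24, 13.30 and 13.20 in Pax3GR explants, against 8.72, 9.34, 7.96, 8.44 and 6.32 in Zic1GR explants. All Pax3GR values were above all Zic1GR values, and both groups were above GR, at 2.14 to 2.32, with a difference between the factors of 5.05 ± 0.41 (adjusted p = 4.11e-08). The ligand wnt4.L was at 4.49 to 9.48 in Pax3GR explants, against 1.90 to 1.98 in Zic1GR explants, at least 17.6-fold higher in Pax3GR explants (adjusted p = 2.64e-05). The nuclear mediator lef1.S was higher by 4.09 ± 0.37 (adjusted p = 2.04e-07) and the target sp5.S, with overlapping values, by 3.96 ± 0.65 or 3.69 floored (adjusted p = 0.000147). The feedback regulators axin2.L and axin2.S, which are not among the genes named by rule and were picked with their values in view, were higher by 2.33 ± 0.39 and 2.18 ± 0.45.

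Inhibitors of the pathway went both ways. The secreted antagonist frzb.L was at 6.25 to 9.99 in Pax3GR explants, against 2.31 to 2.47 in Zic1GR explants, at least 28.2-fold higher in Pax3GR explants (adjusted p = 7.95e-08). A second frzb probe set, listed without a copy letter, was lower, with a difference of -3.76 ± 0.84 or -3.25 floored (adjusted p = 0.00215), with overlapping values. The Dickkopf receptor kremen2.S was higher by 4.37 ± 0.43 or 4.197 floored (adjusted p = 4.44e-07). The Dickkopf antagonist dkk1.S was at 5.296, 3.74, 2.17, 2.29 and 2.27 in Pax3GR explants, against 8.87, 9.56, 8.27, 8.51 and 6.69 in Zic1GR explants. Its Zic1GR values were all higher than its Pax3GR values, a difference of -5.23 ± 0.68 or -4.12 floored (adjusted p = 1.2e-05). The transcriptional repressor tcf7l1.S was lower, with a difference of -3.78 ± 0.63 or -3.55 floored (adjusted p = 0.000176). The β-catenin genes ctnnb1.L and ctnnb1.S differed by 0.077 ± 0.087 and 0.067 ± 0.081 and were not called (adjusted p = 0.528 and 0.558).

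**Figure D4:**
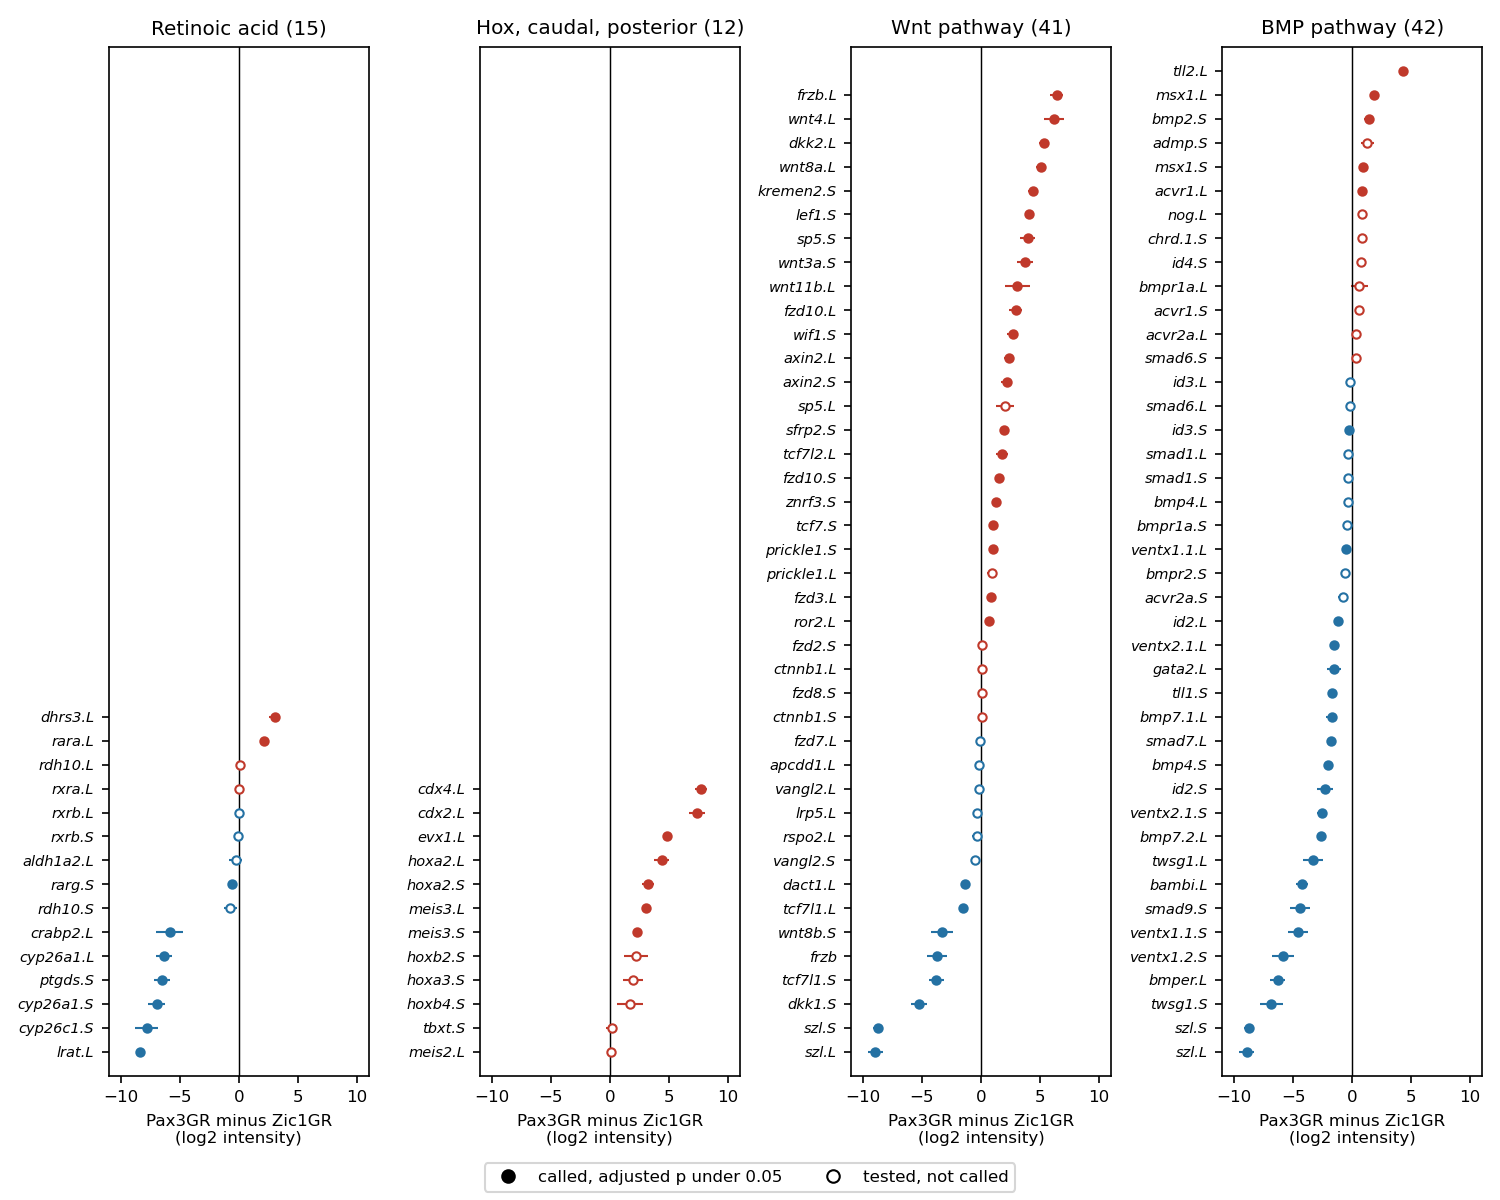
Difference Pax3GR minus Zic1GR (log2 intensity) with its standard error for every tested member of 4 gene lists, numbered in the titles. Filled points passed the limma threshold and open points did not. The Hox, caudal and posterior list has 7 filled points, all to the right of 0, and the retinoic acid list has 7 to the left and 2 to the right.

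BMP pathway genes were more often called lower than higher in Pax3GR explants. Bone morphogenetic proteins are the signals that make ectoderm epidermal. Of 46 copies, 42 were tested, with 5 called higher (10.9%, 8 without Pax3GR replicate 1) and 21 lower (45.7%) and a median of -0.56. The frog antagonist sizzled, szl.S, was at 2.77, 2.57, 2.91, 3.26 and 3.03 in Pax3GR explants, against 10.94, 10.13, 13.15, 11.10 and 12.87 in Zic1GR explants. All Pax3GR explants were off, with a difference of at least 199-fold (adjusted p = 2.11e-11), and GR explants were highest, at 14.08 to 14.39. The other copy szl.L was lower by at least 148-fold. Because szl entered the BMP, Wnt and mesoderm lists, each of those counts holds the same 2 copies. The BMP-binding protein twsg1.S was at 8.69, 4.82, 4.54, 4.54 and 4.23 in Pax3GR explants, against 11.60, 11.98, 13.02, 12.10 and 12.35 in Zic1GR explants. The values did not overlap and the difference was -6.84 ± 0.96 (adjusted p = 2.79e-05).

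The BMP-binding protein bmper.L was at 2.04 to 3.13 in Pax3GR explants, against 7.59 to 10.33 in Zic1GR explants, at least 26.7-fold lower in Pax3GR explants (adjusted p = 1.07e-06). The pseudoreceptor bambi.L, which blocks BMP receptors, was lower, with a difference of -4.24 ± 0.50 (adjusted p = 4.51e-06). The Ventx factors, which BMP signalling switches on in the early frog embryo, were lower too, with ventx1.2.S lower by at least 15.4-fold and ventx2.1.S with a difference of -2.54 ± 0.43 (adjusted p = 0.00011 and 0.000176). The ligand bmp4.S, not named by rule and picked with its values in view, averaged 10.79 in Pax3GR explants and 12.80 in Zic1GR explants. Against GR explants, where twsg1.S averaged 12.59 and bambi.L 13.25, the Zic1GR means of these genes lay nearer than the Pax3GR means. The 5 called higher included the border factor msx1.L, at 13.31 to 13.63 in Pax3GR explants, against 11.10 to 12.02 in Zic1GR explants (difference 1.83 ± 0.15, adjusted p = 3.08e-08), and the protease tll2.L, at least 12.9-fold higher (adjusted p = 5.32e-09).

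Neural plate border genes were more often called higher than lower in Pax3GR explants. The list of 25 copies had 24 tested, with 13 called higher (52%) and 6 lower (24%) and a median of 0.95. Only 3 were called lower without Zic1GR replicate 2 or without Zic1GR replicate 3. The list includes pax3 and zic1, the injected genes, whose probe sets were all called higher, and no count without them was made. The probe set standing for pax3.L averaged 14.14 in Pax3GR and 14.00 in GR explants (limma adjusted p = 0.427). The zinc finger repressor znf703.S was at 11.50, 11.33, 11.04, 11.02 and 10.79 in Pax3GR explants, against 6.41, 6.38, 6.04, 6.08 and 6.25 in Zic1GR explants. All Pax3GR explants were high and all Zic1GR explants low, with a difference of 4.90 ± 0.19 (adjusted p = 1.52e-12). The activator tfap2b.L was higher by 3.202 ± 0.44 (adjusted p = 2.51e-05). The epidermal and border factors dlx3.S and dlx3.L were lower, with differences of -2.005 ± 0.57 and -1.55 ± 0.37 (adjusted p = 0.0112 and 0.0037), with overlapping values. The border factor tfap2a.L, made in all groups, was at 13.27 in Pax3GR explants and 13.14 in Zic1GR explants and differed by 0.13 ± 0.18 (adjusted p = 0.615).

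Neural crest genes split. Of 38 copies, 32 were tested, with 8 called higher (21.1%) and 10 lower (26.3%) and a median of -0.0071. The shares over all named copies were 12.9% and 13.4%. The crest specifier foxd3.L was at 9.88, 10.76, 11.14, 10.71 and 10.82 in Pax3GR explants, against 6.63, 3.26, 3.04, 7.22 and 3.74 in Zic1GR explants. Pax3GR values were all above Zic1GR values, a difference of 5.88 ± 0.66 or 5.49 floored (adjusted p = 2.19e-06). Combination explants were higher again for foxd3.L, at 11.20 to 12.85. The other copy, foxd3.S, was at 3.24 to 7.16 in Pax3GR explants, against 3.76 to 8.69 in Zic1GR explants. Its values overlapped, with medians of 4.70 in Pax3GR and 5.702 in Zic1GR explants, so foxd3.S did not share the direction of foxd3.L. The crest specifier snai2.L was at 9.50, 10.93, 11.14, 10.10 and 10.59 in Pax3GR explants, against 10.13, 7.995, 5.36, 10.13 and 7.38 in Zic1GR explants. The values overlapped, and the difference of 2.25 ± 0.73 (adjusted p = 0.0234) was not called without Pax3GR replicate 3, Zic1GR replicate 3 or Zic1GR replicate 5 (adjusted p up to 0.0636). The combination was at 13.01 to 13.52. The chemokine receptor cxcr4.L was higher by 3.21 ± 0.67 (adjusted p = 0.0012), while its ligand cxcl12.L was at 2.24 to 2.49 in Pax3GR explants, against 9.16 to 11.53 in Zic1GR explants, at least 69.3-fold lower (adjusted p = 5.37e-09). The adhesion gene cdh11.S was lower by at least 7.2-fold (adjusted p = 2.75e-06). The copies of ets1, a factor of cardiac crest, went opposite ways, with ets1.S higher by 2.65 ± 0.25 and ets1.L lower, with a difference of -2.48 ± 0.33 (adjusted p = 2.42e-07 and 1.54e-05).

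Neural plate and neuron genes were also divided, with 37 copies on the array, 27 tested, 7 called higher (18.9%) and 10 lower (27%). The intermediate filament nes.S, nestin, of neural progenitors was at 9.16, 10.12, 10.63, 11.32 and 8.54 in Pax3GR explants, against 2.37, 2.45, 2.38, 2.43 and 2.51 in Zic1GR explants. All Zic1GR explants were off, at least 61.9-fold lower than Pax3GR explants (adjusted p = 1.87e-09). The neuronal tubulin tubb3.L was at 5.78 to 10.96 in Pax3GR explants, against 2.25 to 3.08 in Zic1GR explants (at least 32.8-fold, adjusted p = 3.72e-05), and the growth cone gene gap43.L was higher by 3.13 ± 0.50 or 3.06 floored (adjusted p = 0.000118). Lower in Pax3GR explants, beside neurog2.S and fezf2.L, was the neuronal factor ebf2.S, by at least 16.2-fold (adjusted p = 2.4e-06). The copies of sox3, a neural progenitor factor, differed in behaviour, as sox3.L was lower, with a difference of -3.56 ± 0.53 or -3.302 floored (adjusted p = 5.54e-05) and sox3.S differed by 0.017 ± 0.46 (adjusted p = 0.982). The progenitor factor sox2.L averaged 12.96 ± 0.88 in Pax3GR explants and 11.66 ± 0.68 in Zic1GR explants (SD, n = 5 each), a difference that was not called (adjusted p = 0.246) except with array weights.

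Mesoderm, muscle and endoderm genes were examined because a cap could hold such cells. The mesoderm and organiser list had 63 copies, 31 of them tested, with 7 called higher (11.1%) and 15 lower (23.8%). Brachyury (tbxt) reached at most 4.35 in Pax3GR explants and 5.42 in Zic1GR explants, and actc1, the cardiac actin of early muscle, was at most 2.25 in Pax3GR explants and 4.40 in Zic1GR explants. Endoderm genes sox17a and gata4 reached at most 2.30 in Pax3GR explants and 2.34 in Zic1GR explants. Myogenic myf5.L was nevertheless at 10.96, 10.35, 9.46, 10.96 and 11.17 in Pax3GR explants, against 1.90, 1.94, 1.88, 1.93 and 1.96 in Zic1GR explants. Every Pax3GR explant had it on and every Zic1GR explant off, at least 95.7-fold (adjusted p = 2.01e-05), whereas the related myod1.S was at 4.17 to 5.15 in Pax3GR explants, against 4.15 to 5.58 in Zic1GR explants. The muscle methyltransferase smyd1.L was at 1.97 to 2.08 in Pax3GR explants, against 9.95 to 12.30 in Zic1GR explants, at least 127-fold lower (adjusted p = 3.19e-13). The organiser homeodomain factor gsc.S was at 8.71, 2.05, 2.01, 2.42 and 1.80 in Pax3GR explants, against 10.95, 9.87, 9.44, 10.05 and 10.05 in Zic1GR explants. Zic1GR explants were higher in all 5 arrays, Pax3GR replicate 1 stood far above the remaining Pax3GR explants, and the difference was -6.67 ± 1.09 or -5.13 floored (adjusted p = 0.000137). The forkhead factors foxc2.L and foxc1.L were higher by 4.29 ± 0.62 or 4.21 floored and 4.25 ± 0.59 or 3.99 floored (adjusted p = 4.32e-05 and 2.51e-05). The endoderm list had 23 copies, 10 tested, with 2 called higher (8.7%) and 4 lower (17.4%).

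Epidermal genes were more often called lower than higher in Pax3GR explants. The epidermis and keratin list had 41 copies, 37 tested, with 1 called higher (2.44%) and 15 lower (36.6%) and a median of -0.45. The number lower was 9 without Pax3GR replicate 3 and 8 without Pax3GR replicate 4 or without Zic1GR replicate 3. Keratin krt70.S was near the top of the scale, at 14.91 in Pax3GR explants and 14.96 in Zic1GR explants, with a difference of -0.052 ± 0.071 (adjusted p = 0.607). Its other copy krt70.L had medians of 14.28 and 14.24. Keratin krt12.4.S, with overlapping values, had medians of 11.73 in Pax3GR, 14.07 in Zic1GR and 15.03 in GR explants. For krt12.4.L, also overlapping, the medians were 12.87, 14.28 and 15.06. The epidermal factor gata3.S was at 8.59, 6.57, 7.31, 8.53 and 7.90 in Pax3GR explants, against 10.93, 11.57, 12.25, 11.30 and 12.10 in Zic1GR explants. Its Pax3GR and Zic1GR values did not overlap, and the difference was -3.85 ± 0.68 (adjusted p = 0.000301). GR explants were at 12.57 to 13.09. The epidermal regulator tp63 was low in both injections. Its L copy was at 2.21 to 2.43 in Pax3GR explants, against 2.22 to 2.50 in Zic1GR explants, with GR explants at 2.96 to 7.65. One tp63.S probe set reached at most 1.96 in Pax3GR explants and 2.04 in Zic1GR explants, with GR explants at 5.17 to 8.05. The other reached at most 3.66 in Pax3GR explants and 4.88 in Zic1GR explants, with GR explants at 7.28 to 9.97. In combination explants these 2 tp63.S probe sets were at 2.01 to 6.37 and 5.94 to 9.08, and tp63.L was at 3.45 to 7.83. Within the Pax3GR group the mean of the epidermis list was highest in replicates 1 and 2, at 10.83 and 10.40, against 9.62 to 9.72 in the remaining Pax3GR explants, and the ciliated cell genes were highest in the same 2 explants. Zic1GR explants were at 10.47 to 11.04 and GR explants at 11.48 to 11.70.

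Genes of specialised epidermal cells were examined as well. Of 33 multiciliated cell copies, 30 were tested, with 1 called higher (3.03%) and 4 lower (12.1%). These shares were below the 12.9% and 13.4% of all named copies, and the median was -1.51. Pax3GR replicate 1 decided this count, since 12 were called lower and 0 higher without it. The single member called higher was also lost, one array at a time, without Pax3GR replicates 3, 4 or 5 or Zic1GR replicates 1 or 2, and 2 were called lower without Pax3GR replicate 5 or Zic1GR replicates 1, 2 or 3. The ciliary gene rsph9.L was at 10.45, 7.26, 6.07, 6.001 and 5.89 in Pax3GR explants, against 8.53, 9.07, 10.28, 8.98 and 9.88 in Zic1GR explants. Pax3GR replicate 1 lay above every Zic1GR value and the remaining Pax3GR explants below them, and the difference was -2.21 ± 0.67 (adjusted p = 0.0159). Of 27 ionocyte copies, 22 were tested, with 2 called higher (7.41%) and 3 lower (11.1%, 5 lower without Pax3GR replicate 1). Carbonic anhydrase ca2.S, described above, is on this list and was 1 of the 2 called higher, by at least 125-fold. The proton pump subunit atp6v1b1.L was lower, with a difference of -4.44 ± 0.79 or -3.19 floored with overlapping values (adjusted p = 0.000291). In GR explants atp6v1b1.L was at 12.06 to 12.81, above all values of both injected groups. The ionocyte list mean was likewise higher in GR explants, at 8.65 to 9.33, against 5.78 to 7.02 in Pax3GR and 5.55 to 7.16 in Zic1GR explants. Of 10 goblet and mucus cell copies, 6 were tested, with 2 called each way (20% each). The mucus cell forkhead factor foxa1.S was higher by 5.01 ± 0.80 or 3.95 floored (adjusted p = 0.000111). Its median was 8.04 in GR explants and 8.00 in Pax3GR explants, so Pax3GR explants were near the GR level. A foxa1.L probe set (Xl2.52787.2.A1_at) was below log2 4 in both injected groups, with GR explants at 5.80 to 7.63. The lectin itln1.L, made by goblet cells, was at 7.26 to 13.90 in Pax3GR explants, against 10.46 to 14.20 in Zic1GR explants. It was not called (difference -1.92 ± 1.12, adjusted p = 0.202), but was called lower without Pax3GR replicate 1 (adjusted p = 0.0419).

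Genes on in both groups and graded between them gave a further set. The oxidoreductase txnrd1.L was higher by 5.84 ± 0.86, the cytoskeletal regulator mid1.L by 6.199 ± 0.26 and the somatostatin precursor sst.1.L by 5.61 ± 0.54 (adjusted p = 5e-05, 3.5e-12 and 3.89e-07). The glycolytic gene pgk1, listed without a copy letter, was higher by 6.94 ± 0.53 and its copy pgk1.L by 1.18 ± 0.30. The small G protein gene rasd1 was higher by 6.73 ± 0.67 at the named probe set, but its other tested probe set was called lower. Lower in Pax3GR explants were the endocytic receptor lrp2.L (difference -5.24 ± 0.47), the secreted protease htra1.S (difference -5.31 ± 0.24) and the Nodal co-receptor gene tdgf1.3.L (difference -5.599 ± 0.36; adjusted p = 1.69e-07, 1.01e-11 and 1.9e-09). The water channel gene aqp3-a was at 2.60, 3.17, 2.47, 2.36 and 2.37 in Pax3GR explants, against 11.94, 11.37, 11.06, 12.12 and 11.72 in Zic1GR explants. Pax3GR explants were off for it, at least 200-fold lower (adjusted p = 4.73e-13), and GR explants were at 2.37 to 2.52, so Zic1GR explants were above both.

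Signalling by FGF, Notch and Hedgehog was counted next. The FGF list had 31 copies, 22 tested, with 5 called higher and 5 lower (16.1% each way), and 3 were called higher without Pax3GR replicate 3, 4 or 5. Its transcription factor etv1.S was higher by 1.15 ± 0.20 and its receptor fgfr3.L lower by at least 5.69-fold (adjusted p = 0.00031 and 7.05e-06), while the ligand fgf8.L differed by 0.26 ± 0.45 and was not called (adjusted p = 0.692). Of 26 Notch pathway copies, 21 were tested, with 2 called higher (7.69%) and 4 lower (15.4%). The ligand jag1.L was higher by 1.70 ± 0.21 and the ligand dll1.L lower, with a difference of -0.97 ± 0.25 (adjusted p = 8.83e-06 and 0.00569). Of 15 Hedgehog copies, 7 were tested, with 3 called higher (20%) and 0 lower (0%). The number higher was 2 without Pax3GR replicate 3, 4 or 5 or without any 1 Zic1GR replicate, and 4 without Pax3GR replicate 1. The co-receptor boc.L was higher by 1.44 ± 0.34 (adjusted p = 0.00315).

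Since every group received dexamethasone, the glucocorticoid response list was counted as well. Of 31 copies, 23 were tested, with 7 called higher (22.6%) and 8 lower (25.8%). The regulator cebpb.L was higher by 5.72 ± 1.05 or 5.04 floored and cebpa.L lower, with a difference of -4.97 ± 0.56 or -4.68 floored (adjusted p = 0.000391 and 2.41e-06). Of 33 stress and p53 copies, 27 were tested, with 7 called higher (21.2%) and 4 lower (12.1%). For example, sesn1.L was higher by at least 10.4-fold and the chaperone hspa5.L lower, with a difference of -1.15 ± 0.22 (adjusted p = 3.87e-05 and 0.000555). Of 95 cell division copies, 92 were tested, with 11 called higher (11.6%) and 14 lower (14.7%), near the 12.9% and 13.4% of all named copies. The mitotic kinase wee1.S was higher by 1.14 ± 0.13 and the replication gene mcm4.S lower, with a difference of -1.48 ± 0.26 (adjusted p = 3.49e-06 and 0.000227). Of 34 early and maternal copies, 19 were tested, with 2 called higher (5.88%), among them vegt.L by at least 9.99-fold (adjusted p = 0.000362), and 9 lower (26.5%). Of 21 water and solute channel copies, 14 were tested, with 4 called higher (19%) and 5 lower (23.8%). Of 19 blood and vessel copies, 5 were tested, with 0 called higher (0%) and 4 lower (21.1%).

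**Figure D5:**
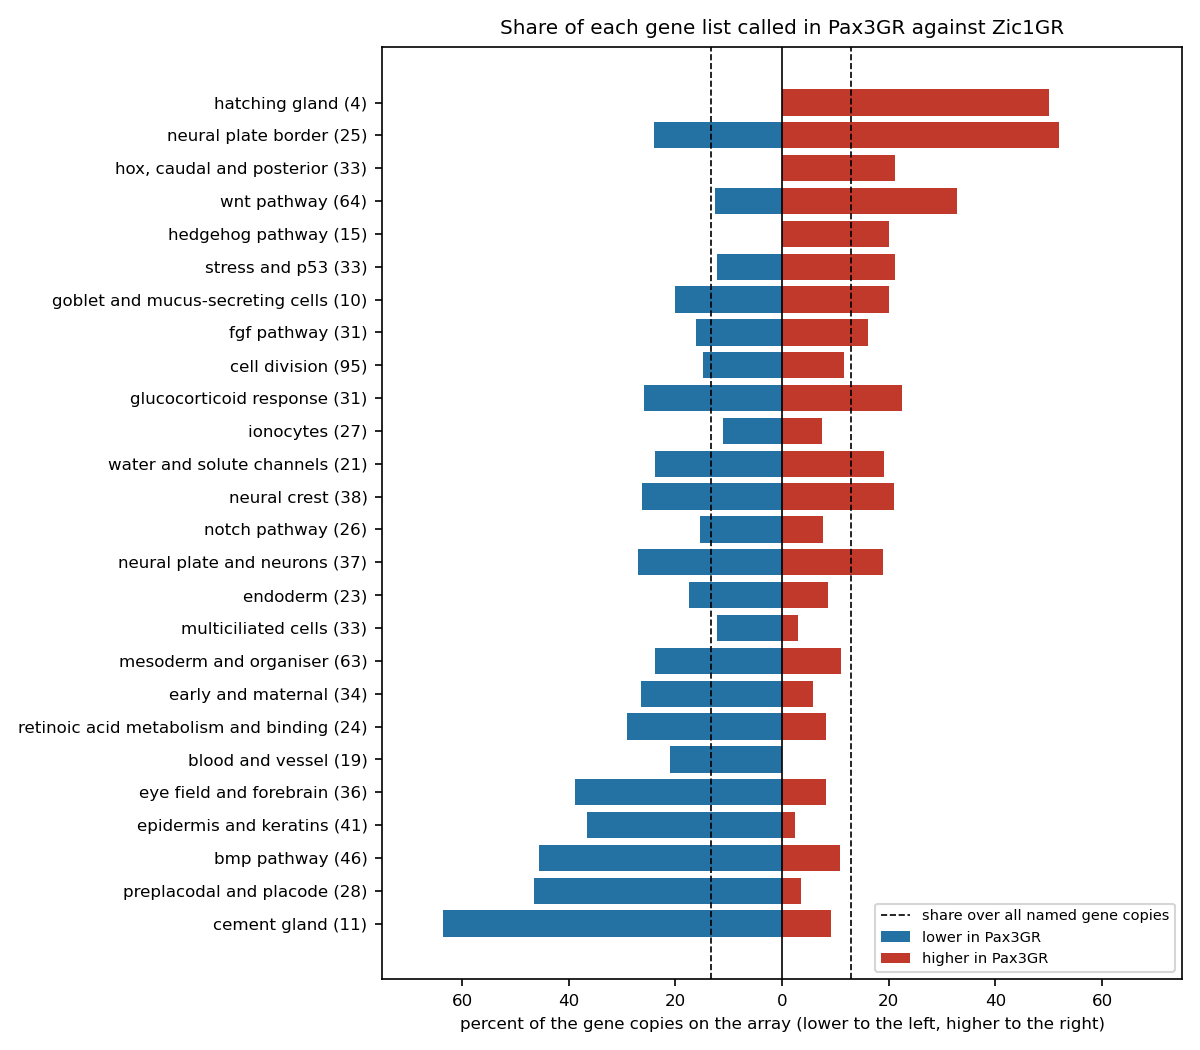
Share of each gene list's copies on the array (number in brackets) that was called higher (red, to the right) or lower (blue, to the left) in Pax3GR against Zic1GR explants. The dashed lines mark the share over all named gene copies, 12.9% higher and 13.4% lower. Border and Wnt genes reach furthest to the right among lists of at least 20 copies, and placode and BMP genes furthest to the left. The border list holds the injected genes pax3 and zic1.

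Xenopus laevis is an allotetraploid frog that carries many genes as 2 copies, on chromosomes labelled L and S. Both copies were tested for 1415 genes. Both were called for 244 of them, 101 higher in both copies, 114 lower in both and 29 in opposite directions, while 499 had 1 copy called and 672 neither. The gene xepsin and the synuclein gene sncg were called lower for the L copy and higher for the S copy (Zic1GR mean of xepsin.S 2.29, so below log2 4). The GATA factor gene gata6 likewise had a difference of -1.95 for gata6.L and 3.27 for gata6.S. These pairs were picked with their values in view. Where probe sets of the same copy could be set side by side, 805 of 1745 copies had a call, and 20 were called both ways. Probe sets of the 2 copies can share sequence, and cross-hybridisation between copies was not tested.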

How the data were processed

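Each array measured 1 biological replicate, and groups came from the array titles. The authors deposited log2 probe set intensities in 1 value table. Per the submitters' processing notes, GCRMA and Partek were used, with no version, role or order given, so how background was corrected can affect low values. Gene symbols came from the platform's annotation, which gave 1 symbol to 15495 of 32539 probe sets, several to 279 and none to 16765 (checked against the RefSeq gene table of Xenopus_laevis_v10.1, which matched 15384). The 96 control probe sets were left out.

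A model with 1 mean per group was fitted to all 20 arrays with limma 3.58.1 (lmFit and eBayes) in R 4.3.3, and p-values were adjusted by Benjamini-Hochberg over the 20519 probe sets tested. For a gene copy with several probe sets, that with the largest mean over the 20 arrays stood for it, which gave 11303 named copies, 8396 of them tested. The 26 gene lists and the comparison itself were chosen with earlier results of these data known. Named genes were every probe set of pax3 and zic1, the 12 on and off genes with the highest level each way, the 10 largest graded differences each way, up to 5 called members each way and 2 uncalled members with the highest mean per list, and the other copy of each; genes of unsure function were left out. On simulated data with 100 probe sets changed by each size, 49% of changes of 1 log2 and 72% of changes of 2 log2 were recovered. In that simulation 9 unchanged probe sets were called. Far fewer of the 20519 probe sets were changed there than the 34.3% called in the data, so these rates need not hold for this comparison. Same-numbered Pax3GR and Zic1GR arrays did not deviate together (correlations -0.38 to 0.042), so replicate numbers were not used as pairs. The alternatives covered filters, low values, scaling, variance model, weights, thresholds, probe set choice and arrays left out.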

Additional observations from a re-analysis of the deposited data

Results flagged for a closer look

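Among 263 groups of 5 values examined (named genes and gene list means), 14 had a highest or lowest array whose gap to its neighbour exceeded 0.71 of the group's range. Chance alone flags about 1 in 20 such groups. Of the 14, 11 were in Pax3GR explants and 3 in Zic1GR explants.

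Within the Pax3GR group, high arrays were found for the BMP-binding protein twsg1.S (8.69, next 4.82), the proton pump subunit atp6v1b1.L (6.62, next 2.60), the organiser factor gsc.S (8.71, next 2.42), the frzb probe set without a copy letter (7.53, next 3.86) and the ionocyte list mean (7.02, next 5.92). Low arrays were found for a pax3.L probe set (13.62, next 13.76), tbx1.L (11.12, next 11.78), sp5.S (6.21, next 9.16), sox3.L (2.69, next 4.70), lef1.S (8.68, next 9.99) and the Wnt pathway list mean (6.43, next 6.74). Within the Zic1GR group, cyp26c1.S had a low array (11.26, next 12.56), and hoxa2.L (5.06, next 2.58) and foxa1.S (4.996, next 2.95) had a high array.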

How the results depend on the processing

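Of 7037 probe sets called, array weights gave 10913 (5631 lower), a difference of at least 1 log2 gave 3921 (2141 higher, 1780 lower), an adjusted p under 0.01 gave 4516 (2063 lower) and 1 probe set per gene symbol gave 2999 (1473 higher, 1526 lower). Leaving out arrays, 1 at a time or 1 from each group together, gave 6039 to 7760 called, 3080 to 3858 higher and 2900 to 3902 lower. With 1 array left out, 295 to 345 were on in Pax3GR and 160 to 200 on in Zic1GR explants. On and off need every array of a group, so leaving out an array could not lower the 289 and 157. With on set at log2 5 these counts were 299 and 143, and at log2 3 they were 244 and 107. With the replicate number as a block, 6964 were called, and 0 of 5 Pax3GR arrays correlated best with its own number. Of the 114 called probe sets of genes named here, 108 kept the call in every setting, 0 reversed, and 1 (snai2.L) was lost when an array was left out. Of the 12 not called, 3 were called in some setting. Most of the called genes were named for a large difference in this same comparison. Their stability therefore does not speak for the remaining calls. The 5 arrays per group and the levels below log2 4 limit what could be detected.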
